A study of Homo sapiens with 3 samples.

Results

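The genes described here are 53 genes of the long arm of chromosome 21, from HSPA13 near the centromere to PRMT2 near the end of the arm, and they include CXADR and NRIP1. They were chosen by their MAS5 signals in cisplatin-resistant and parental cells, as a region in which most genes were higher with cisplatin resistance while some went the other way. Those differences are given below as a description and support nothing. Of the 53 genes, 51 had a probe set annotated to 1 gene symbol, out of 19775 such genes on the array. All 51 lay on chromosome 21 in the RefSeq gene table. RUNX1 and TTC3 had only probe sets that carry several symbols, so no value is given for them.

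The cisplatin-resistant subline MHCC97L/CisR (CisR) and the doxorubicin-resistant subline MHCC97L/DoxR (DoxR) were both derived from MHCC97Low, a line from a metastatic human hepatocellular carcinoma that served as the parental control. Per the labels, none of the 3 cultures received a treatment before RNA was taken. Each was measured on 1 Affymetrix U133 Plus 2.0 array as a MAS5 signal, an arbitrary intensity unit. With 1 array per line there was no spread between cultures to set a difference against, no test was possible, and traits of an array or a culture cannot be told apart from drug resistance.

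Chromosome 21 is a small human autosome, and an extra copy of it causes Down syndrome. Its genes have unrelated products, among them the amyloid precursor protein, superoxide dismutase, interferon receptor chains and several transcription regulators. CXADR is a junctional adhesion protein that coxsackieviruses and adenoviruses use for entry. NRIP1 is a corepressor that binds ligand-activated nuclear receptors and restrains metabolic gene expression in liver and fat. The arrays measured RNA, and DNA copy number was not measured.

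Dim signals were lifted to a floor of 76.9, the median signal over all probe sets and arrays, and log2 was taken. Genes with a value over the floor on either array of a pair were compared, and a difference of 2-fold or more was called higher or lower. JAM2, a junctional adhesion molecule, CYYR1, the aggrecan-cleaving protease ADAMTS5 and the kinase HUNK were at or under the floor on all 3 arrays, which left 47 of the 51 genes for comparison with parental cells. Median signals of the arrays were 79.2 in CisR, 73.3 in DoxR and 78.5 in parental cells. The summed signal of 11 hepatocyte and fetal liver markers was 1776 in CisR, 5784 in DoxR and 11924 in parental cells, with 8, 7 and 9 of the markers above the floor. Of 10 such markers compared, 9 were below parental cells in CisR and 8 in DoxR, beside 47.9% and 49.6% of all genes. Transferrin (TF), the largest single part of the parental sum, had 234, 404 and 4925 in CisR, DoxR and parental cells. The fibrinogen chain FGB was at least 25.7-fold lower in DoxR than in parental cells. Albumin was under the floor in CisR, but 2.02-fold above parental cells in DoxR, and apolipoprotein A1 was under the floor on all 3 arrays. Apolipoprotein B (APOB) went against the sum, at least 5.01-fold higher in CisR and at least 10.6-fold higher in DoxR than in parental cells. The summed signal of 8 fibroblast markers was 3433 in CisR, 1559 in DoxR and 804 in parental cells, with 4, 2 and 2 of them above the floor and COL1A2, COL3A1, PDGFRB and POSTN under it throughout. In CisR and DoxR most of that sum was LUM, with 2632 and 1167, against 258 in parental cells. COL1A1 had 511, 242 and 309 in CisR, DoxR and parental cells. Sums for 7 endothelial markers were 1332, 1311 and 1510, with 3 above the floor on each array and CDH5, VWF, TEK and CLDN5 under it. In CisR, DoxR and parental cells PECAM1 had 802, 827 and 1052, KDR 285, 190 and 200 and EGFL7 199, 246 and 167. Sums for 6 leukocyte markers were 784, 710 and 790, with 3, 3 and 2 above the floor and PTPRC, CD14 and LYZ under it. CD79A had 275, 382 and 377 in CisR, DoxR and parental cells, ITGAM 270, 161 and 241, and CD3E 86.6, 78.7 and 49.7. The part of these differences in the results below was not tested.

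The first comparison set CisR against parental cells. Of the 47 genes compared, 38 were above the parental value, beside 52.1% of all 12699 genes compared, and 9 were below it, beside 47.9%. On the higher side 11 genes reached 2-fold, beside 2.82% of all genes. On the lower side NRIP1 alone did, beside 2.58% of all genes. At 1.5-fold, 22 genes were higher and 3 lower, beside 9.29% and 8.26% of all genes. The median log2 difference was 0.55 over the 47 genes and 0.02 over all genes.

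**Figure D1:**
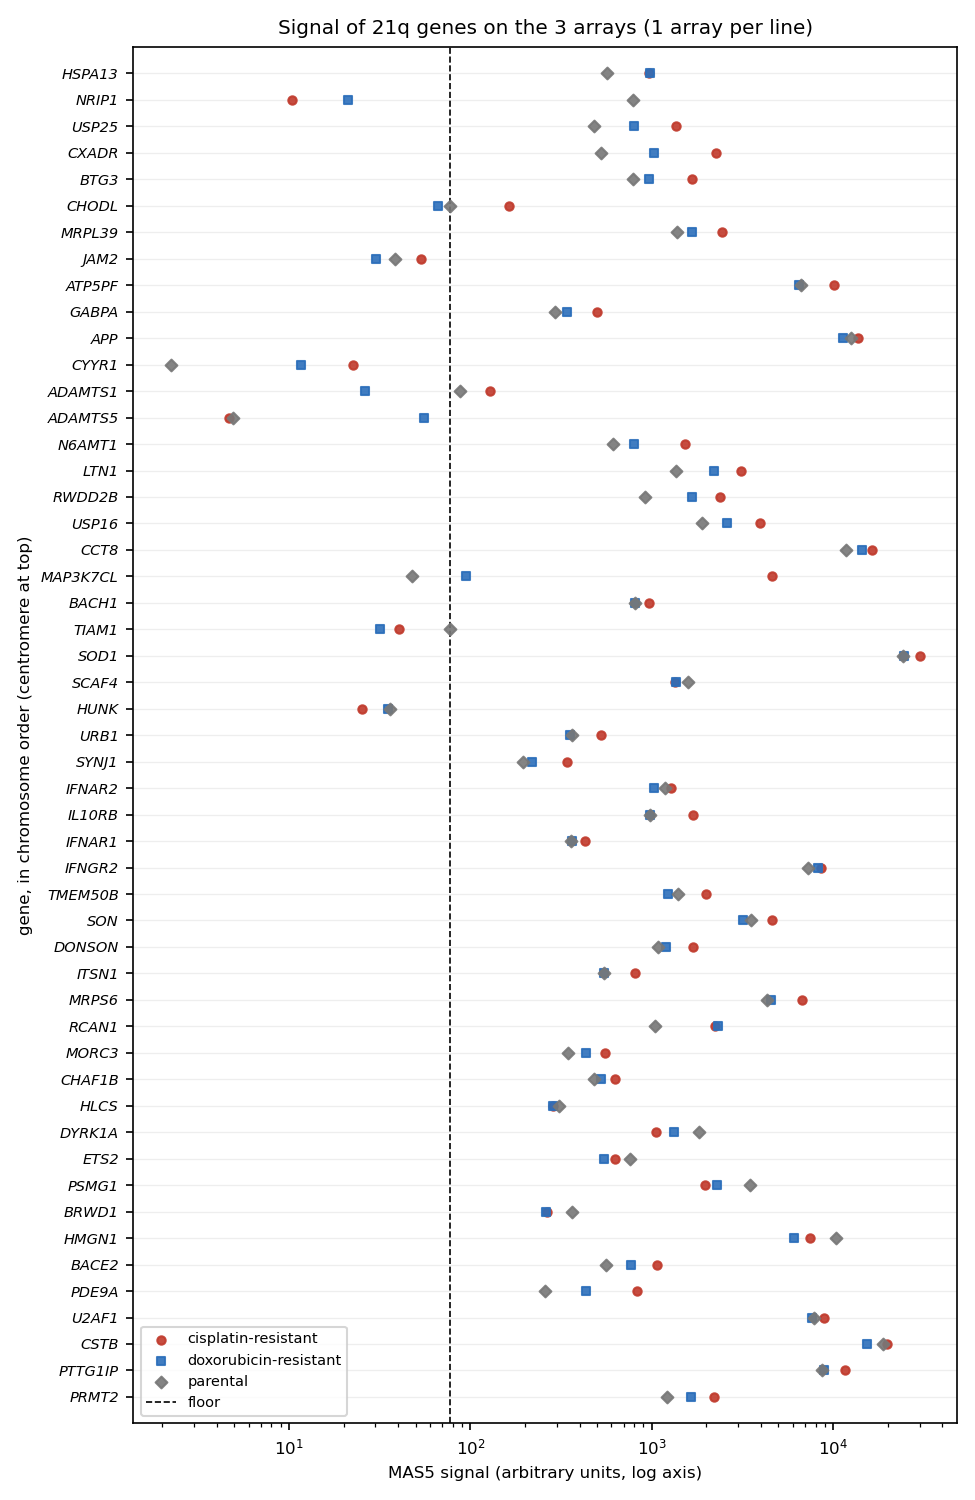
MAS5 signal (arbitrary units, log axis) of the 51 genes with a value, in chromosome order, with 1 point for each array and a dashed line at the floor of 76.9. CisR points lie above parental ones in signal for 38 of the 47 compared genes, while NRIP1 and the genes from HLCS to HMGN1 show the opposite order.

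The section from HSPA13 to BACH1 had the higher median, and its end was set with earlier results of these data known. In it, 17 of 18 compared genes were above parental cells in CisR, beside 52.1% of all genes. There 9 reached 2-fold, beside 2.82% of all genes, and the median log2 difference was 0.95. From TIAM1 to PRMT2, 21 of 29 were above parental cells and 2, RCAN1 and PDE9A, reached 2-fold, with a median of 0.39.

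CXADR had a signal of 2274 in CisR, 1035 in DoxR and 522 in parental cells. It was highest in CisR, 4.35-fold above parental cells, with DoxR between them at 1.98-fold above parental cells. Both other CXADR probe sets above the floor gave like values, 4.30-fold and 4.70-fold in CisR and 2.25-fold and 2.18-fold in DoxR. The DoxR call thus depended on the probe set, since the brightest one lay just under 2-fold.

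USP25, a deubiquitinating enzyme that precedes CXADR in the list, had signals of 1368, 802 and 479 in CisR, DoxR and parental cells. BTG3, an antiproliferative protein that follows CXADR, had 1670, 968 and 792 in the same arrays. Both showed the order of CXADR, with USP25 2.86-fold and BTG3 2.11-fold above parental cells in CisR, and 1.67-fold and 1.22-fold in DoxR. The other measured USP25 probe sets gave log2 differences of 1.01 and 0.68 in CisR and 0.48 and -0.31 in DoxR. CHODL, a membrane protein with a C-type lectin domain, had 163 in CisR and 66.4 in DoxR, against 77.0 in parental cells. The parental signal lay at the floor, so the 2.11-fold difference of CisR rests on a dim probe set.

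NRIP1, between HSPA13 and USP25, ran opposite to them. Its signal was 10.4 in CisR and 21.1 in DoxR, against 784 in parental cells. Both sublines were under the floor, which makes NRIP1 at least 10.2-fold lower in each. Whether fewer cells carried the transcript or each cell carried less cannot be told apart in bulk RNA. The second NRIP1 probe set was under the floor on all 3 arrays and gave no comparison. HSPA13, a chaperone of the HSP70 family, had 971, 981 and 569 in CisR, DoxR and parental cells, 1.70-fold and 1.72-fold above parental cells in the sublines. Its second probe set turned the direction in CisR, with log2 differences of -0.11 in CisR and 0.32 in DoxR. Each gene was set against the median of its nearest compared genes, up to 5 on each side, a measure chosen after seeing the data. NRIP1 had fewer than 5 on the centromere side. It stood at -3.86 or lower in CisR and -3.64 or lower in DoxR on this log2 scale. By the same measure 7 of the 11 genes higher in CisR than in parental cells came under 2-fold, at log2 values of 0.59 for BTG3, 0.40 for CHODL, 0.65 for N6AMT1, 0.53 for LTN1, 0.85 for RWDD2B, 0.55 for USP16 and 0.67 for RCAN1.

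The windows around the NRIP1 starts are shown because NRIP1 was the gene of the region under the floor in both sublines and bright in parental cells. RefSeq (GRCh38.p14) lists 3 start sites for it on the minus strand, and each window runs from 250 bases before to 50 after a start. Capitals mark GGGCGG (SP motif) and CCAAT (NF-Y motif) on either strand. The windows lie at chr21:15064541-15064840, chr21:15064951-15065250 and chr21:15065887-15066186 and follow in that order.
NRIP1 most downstream start: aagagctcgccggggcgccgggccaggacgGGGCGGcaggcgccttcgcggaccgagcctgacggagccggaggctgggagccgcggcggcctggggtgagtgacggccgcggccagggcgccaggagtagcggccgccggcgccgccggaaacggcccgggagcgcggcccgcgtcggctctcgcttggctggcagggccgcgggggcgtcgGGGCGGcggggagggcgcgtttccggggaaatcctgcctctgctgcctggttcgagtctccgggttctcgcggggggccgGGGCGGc
NRIP1 middle start: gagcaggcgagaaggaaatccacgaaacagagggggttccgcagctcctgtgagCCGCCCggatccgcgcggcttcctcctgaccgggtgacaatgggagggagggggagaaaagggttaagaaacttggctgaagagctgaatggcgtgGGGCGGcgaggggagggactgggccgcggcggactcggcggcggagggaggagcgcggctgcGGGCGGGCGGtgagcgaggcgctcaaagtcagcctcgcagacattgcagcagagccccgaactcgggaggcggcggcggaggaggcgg
NRIP1 most upstream start: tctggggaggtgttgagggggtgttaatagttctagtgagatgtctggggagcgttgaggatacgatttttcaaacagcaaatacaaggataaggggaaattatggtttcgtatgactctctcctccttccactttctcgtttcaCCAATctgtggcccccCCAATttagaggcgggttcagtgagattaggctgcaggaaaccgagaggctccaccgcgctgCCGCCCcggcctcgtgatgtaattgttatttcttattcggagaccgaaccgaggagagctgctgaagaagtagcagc

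These windows differ in composition, with a GC content of 80.0%, 69.0% and 50.7% and with 48, 32 and 14 CpG dinucleotides. GGGCGG occurs 3, 4 and 1 times in them, and CCAAT occurs 2 times, both in the most upstream window. In the middle window 2 of the GGGCGG matches overlap each other, and no GGGCGG overlaps a CCAAT. A match is not a binding site.

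MAP3K7CL, a gene named for its similarity to the carboxyl end of the kinase TAK1, had the largest difference of the 47. Its signal was 4614 in CisR and 95.0 in DoxR, against 47.8 in parental cells. It was at least 60.0-fold above parental cells in CisR and at least 1.24-fold in DoxR, while CisR was 48.6-fold above DoxR. MAP3K7CL had 1 probe set, so no other could be set beside it. The genes on either side of it in the list were much less displaced. CCT8, a subunit of the CCT chaperonin, had 16467, 14388 and 11727 in CisR, DoxR and parental cells, and was 1.40-fold above parental cells in CisR. BACH1, a haem-sensitive transcription repressor, had 966, 808 and 806 in the same arrays, 1.20-fold above parental cells in CisR.

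**Figure D2:**
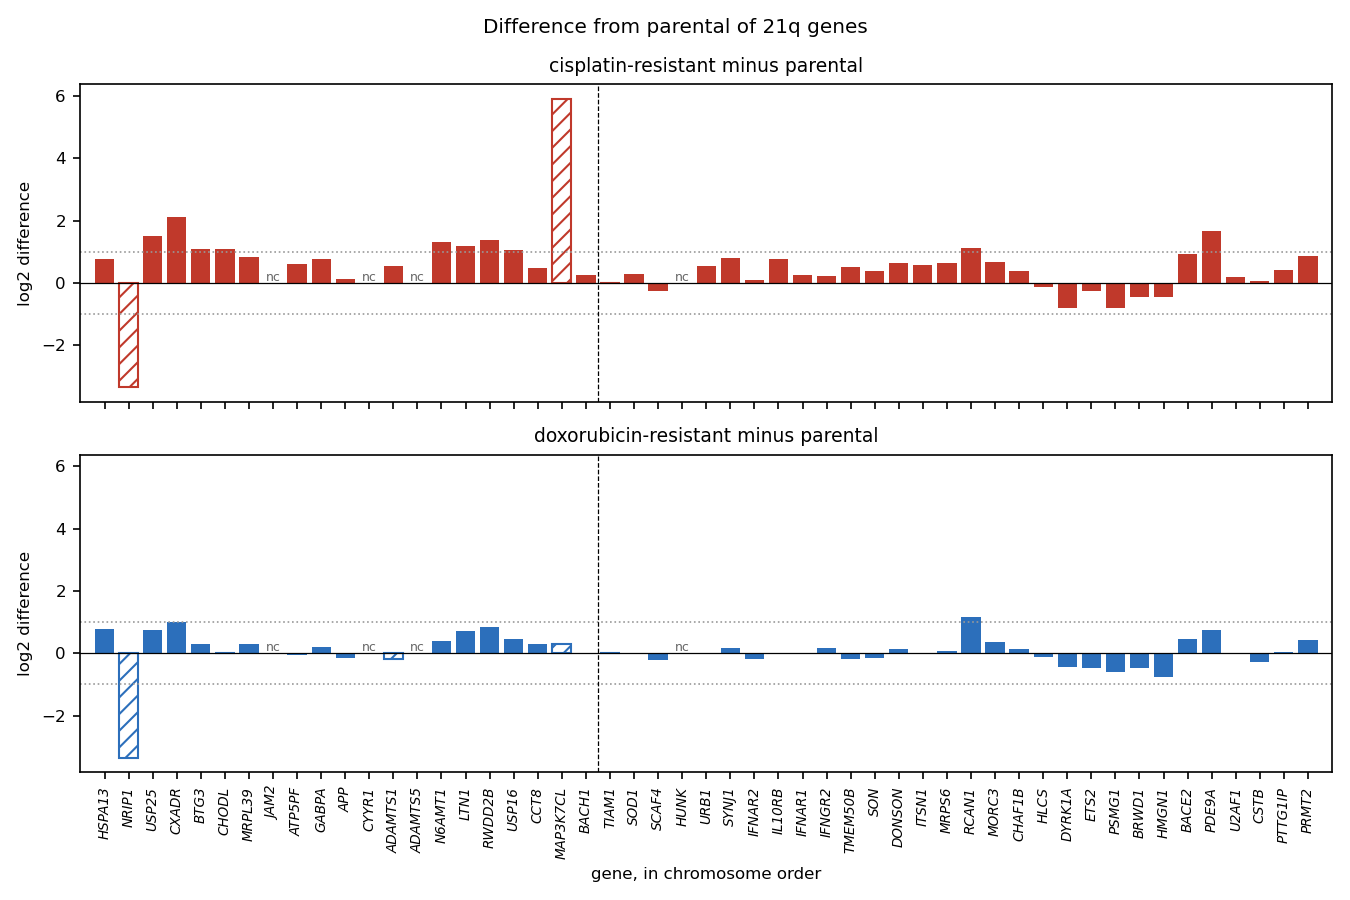
Log2 difference from parental cells (vertical axis) of the 51 genes in chromosome order, CisR above and DoxR below. Hatched bars are bounds whose dimmer side is under the floor, "nc" marks genes not compared, dotted lines mark 2-fold, and the dashed line separates BACH1 from TIAM1. MAP3K7CL at 5.91 stands out in the upper panel, NRIP1 at -3.35 in both.

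LTN1, RWDD2B and USP16 lie just before CCT8. LTN1, the E3 ligase of ribosome quality control, had signals of 3108, 2217 and 1364 in CisR, DoxR and parental cells. USP16, a deubiquitinase of histone H2A, had 3971, 2587 and 1892, and RWDD2B, whose product carries an RWD domain, had 2378, 1669 and 921. All 3 were highest in CisR and lowest in parental cells. CisR was 2.28-fold above parental cells for LTN1, 2.10-fold for USP16 and 2.58-fold for RWDD2B. DoxR was 1.63-fold, 1.37-fold and 1.81-fold above them for the same genes. In CisR the other RWDD2B probe set gave 2.54-fold and those of USP16 2.07-fold and 1.88-fold, while the second LTN1 probe set gave a log2 difference of 1.00 in CisR and -0.11 in DoxR. LTN1, USP16 and USP25 are the 3 compared genes of the 4 listed for ubiquitin and ribosome quality control, and TTC3 has no value. All 3 reached 2-fold in CisR, beside 2.82% of all genes. The genes were chosen by these same values, so this count says nothing about a role.

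N6AMT1, a methyltransferase now named HEMK2, had 1523, 803 and 609 in CisR, DoxR and parental cells, 2.50-fold and 1.32-fold above parental cells in the sublines. Another N6AMT1 probe set, dim and above the floor in CisR alone, bounded the CisR difference at 1.10-fold or more.

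MRPL39, ATP5PF and GABPA lie between CHODL and APP. GABPA, the DNA-binding ETS subunit of nuclear respiratory factor GABP, had 498 in CisR, 342 in DoxR and 295 in parental cells. ATP5PF, a subunit of mitochondrial ATP synthase, had 10084, 6449 and 6649 in the same arrays, and MRPL39, a mitochondrial ribosomal protein, had 2442, 1678 and 1372. In CisR they were 1.69-fold, 1.52-fold and 1.78-fold above parental cells, all short of 2-fold. The second GABPA probe set gave log2 differences of 0.20 in CisR and -0.55 in DoxR.

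GABPA and ATP5PF are transcribed in opposite directions, and the GABPA window overlaps 2 ATP5PF windows, by 167 and 17 bases, so the same stretch flanks both starts. It is shown with the windows of LTN1 and USP16, which like it hold the ETS motif CCGGAAG (capitals, either strand), the kind of core that GABPA is known to bind. In RefSeq (GRCh38.p14) the windows are chr21:25734722-25735021 on the plus strand, chr21:28992828-28993127 on the minus strand and chr21:29024418-29024717 on the plus strand.
GABPA: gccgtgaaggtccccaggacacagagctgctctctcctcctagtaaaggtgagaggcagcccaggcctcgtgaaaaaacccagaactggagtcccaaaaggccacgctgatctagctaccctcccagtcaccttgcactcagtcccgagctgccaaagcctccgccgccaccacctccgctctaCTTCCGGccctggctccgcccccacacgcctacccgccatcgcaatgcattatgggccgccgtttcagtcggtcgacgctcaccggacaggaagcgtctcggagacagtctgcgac
LTN1: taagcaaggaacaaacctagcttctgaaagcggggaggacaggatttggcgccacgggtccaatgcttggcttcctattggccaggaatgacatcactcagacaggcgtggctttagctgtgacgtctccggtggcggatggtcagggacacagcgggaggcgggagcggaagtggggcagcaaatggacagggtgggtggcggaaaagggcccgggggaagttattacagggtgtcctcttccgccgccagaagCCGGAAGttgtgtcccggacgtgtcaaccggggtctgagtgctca
USP16: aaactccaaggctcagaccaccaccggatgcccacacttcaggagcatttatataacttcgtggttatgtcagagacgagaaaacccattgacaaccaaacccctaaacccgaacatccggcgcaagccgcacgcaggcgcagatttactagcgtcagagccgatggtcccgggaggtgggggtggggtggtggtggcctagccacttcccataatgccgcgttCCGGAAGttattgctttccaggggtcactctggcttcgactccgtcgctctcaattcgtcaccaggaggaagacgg

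Each of these windows holds the motif 1 time. Windows were found for 39 of the 53 genes, 64 windows in all, of which 14 (21.9%) hold CCGGAAG, beside 10.3% of all 35116 windows. Those 14 belong to 12 genes, which include HMGN1 and HLCS, both below parental cells, as well as genes above them. TGANTCA, the core shared by AP-1 and BACH1 sites, was in 7.81% of the 64 windows and 7.71% of all windows. CCAAT was in 23.4% and 34.6%. GGGCGG was in 41 of the 64 windows and in 15786 of all 35116. The GABPA match lies in the stretch shared with an ATP5PF window, so this site counts for both genes. Several windows can belong to 1 gene, and these shares are a description of letters.

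APP, the amyloid precursor protein, was close to parental cells in both sublines. Its signals were 13744, 11323 and 12569 in CisR, DoxR and parental cells. All 3 APP probe sets lay within a log2 difference of 0.21 of parental cells, and relative to the median of its neighbours APP stood at -0.55 in CisR. BACE2, a protease that cleaves APP and lies far along the arm, had 1076, 772 and 559 in CisR, DoxR and parental cells, 1.93-fold and 1.38-fold above parental cells in the sublines. Among 10 compared secretases and APP relatives on other chromosomes, 1 reached 2-fold in CisR and the median log2 difference was -0.02. That gene was APLP1, an APP homologue, with 317 in CisR and 139 in parental cells. ADAMTS1, a matrix protease, was dim, with 129, 26.2 and 87.8 in CisR, DoxR and parental cells.

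At the start of the distal section the genes lay near or below parental cells. TIAM1, a RAC exchange factor, had 40.3 in CisR and 31.6 in DoxR, both under the floor, against 77.0 in parental cells, at the floor. SOD1, the cytosolic superoxide dismutase, had 29979, 24692 and 24348 in CisR, DoxR and parental cells, 1.23-fold above parental cells in CisR and 1.01-fold in DoxR. SCAF4, an RNA polymerase II tail-binding protein, was 1.19-fold below parental cells in CisR by its brightest probe set, but its 3 other measured probe sets were above parental cells, by up to 2.15-fold. From URB1 to CHAF1B all 14 genes were above parental cells in CisR, beside 52.1% of all genes. Their log2 differences lay between 0.11 and 1.11, with a median of 0.55. In DoxR 9 of these 14 were above parental cells, beside 50.4% of all genes, and the median was 0.04. The ends of this stretch were set with the values in view.

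The stretch holds a cluster of class II cytokine receptor genes. IL10RB, the chain shared by the IL-10, IL-22 and type III interferon receptors, had 1694 in CisR and 981 in DoxR, against 985 in parental cells. IFNAR1 and IFNAR2, the type I interferon receptor chains, had 430, 362 and 358 and 1271, 1033 and 1177 in CisR, DoxR and parental cells. IFNGR2, the signalling chain of the interferon gamma receptor, had 8616, 8237 and 7307. All 4 lay above parental cells in CisR, by 1.72-fold for IL10RB, 1.20-fold for IFNAR1, 1.08-fold for IFNAR2 and 1.18-fold for IFNGR2, and none reached 2-fold. A dimmer IFNAR1 probe set gave 2.21-fold in CisR, and the other IFNAR2 probe sets gave 1.57-fold and 1.39-fold. Receptor partners, kinases and transcription factors of these receptors encoded elsewhere had a median log2 difference of 0.13 over 9 genes in CisR, with none at 2-fold. In DoxR 1 of 7 reached it, IL22RA1, a chain of the IL-22 receptor, at 2.04-fold above parental cells.

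RCAN1, a feedback inhibitor of calcineurin, was displaced by like amounts in both sublines. It had 2240 in CisR and 2319 in DoxR, against 1039 in parental cells, 2.16-fold and 2.23-fold higher. Its second measured probe set gave log2 differences of 0.79 and 0.74, under the call. Of 9 compared calcineurin and NFAT genes elsewhere in the genome, none reached 2-fold in either subline.

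The remaining genes of this stretch gave log2 differences between 0.39 and 0.81 in CisR and between -0.19 and 0.34 in DoxR. The CisR differences were 0.81 for the phosphatase SYNJ1, 0.69 for the chromatin ATPase MORC3, 0.64 for the mitochondrial ribosomal protein MRPS6 and 0.64 for the replication fork protein DONSON. They were 0.57 for the endocytic scaffold ITSN1, 0.54 for the ribosome biogenesis factor URB1, 0.51 for TMEM50B, 0.39 for the splicing cofactor SON and 0.39 for CHAF1B, a subunit of chromatin assembly factor 1. Another ITSN1 probe set had 619, 790 and 389 in CisR, DoxR and parental cells, 1.59-fold and 2.03-fold above parental cells in the sublines. Dimmer ITSN1 probe sets gave log2 differences of 0.26 and -0.12 in CisR, and of -0.38 and -0.28 or lower in DoxR.

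A run of genes further along went the other way. From HLCS to HMGN1, 6 of 6 compared genes were below parental cells in both sublines, beside 47.9% of all genes in CisR and 49.6% in DoxR, although none reached 2-fold. The median log2 differences were -0.46 in CisR and -0.47 in DoxR. This run was picked out with its values in view. DYRK1A, a kinase that phosphorylates NFAT and splicing factors, had 1054 in CisR and 1335 in DoxR, against 1823 in parental cells. PSMG1, a proteasome assembly chaperone, had 1978 in CisR and 2293 in DoxR, against 3484 in parental cells. HMGN1, a nucleosome-binding protein, had 7487 and 6081 in the sublines, against 10315 in parental cells. The parental array was the highest for each.

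ETS2, an ETS transcription factor, had 630 in CisR and 544 in DoxR, against 755 in parental cells, and its second measured probe set gave log2 differences of -0.48 and -0.41. BRWD1, a bromodomain protein, had 264 and 261 in the sublines, against 362 in parental cells, while its other measured probe sets disagreed. They stood at -1.80 or lower, -0.15 or lower and -0.01 in CisR, and at -1.20, -0.15 or lower and 0.20 in DoxR. HLCS, which attaches biotin to carboxylases, was nearest to parental cells, at -0.12 in both sublines, and its other measured probe set was above parental cells in CisR, at 0.68. Other genes of the same interval were mixed. Of 5 compared, 3 were above parental cells in CisR, and the median of the 5 was 0.21. In DoxR 3 of 4 compared were below parental cells, with a median of -0.05.

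**Figure D3:**
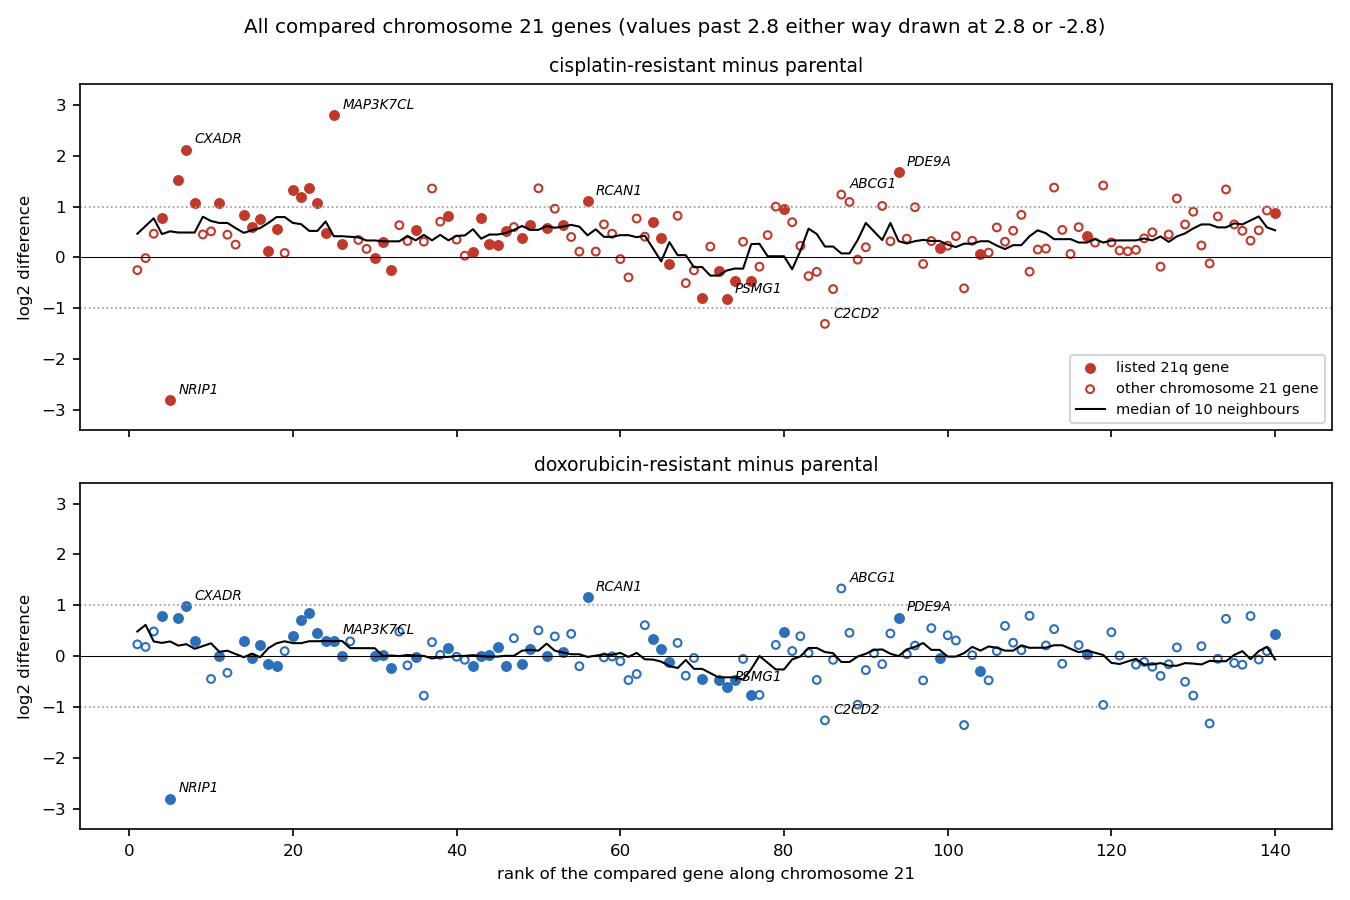
Log2 difference from parental cells (vertical axis) of every compared chromosome 21 gene, by its rank along the chromosome (horizontal axis), in CisR (upper) and DoxR (lower). Filled points are the listed genes, open points the others, and the line is the median of up to 10 nearest genes, fewer near the ends. Points past the limit drawn are set at it, MAP3K7CL at 5.91 and NRIP1 at -3.35 among them.

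Beyond HMGN1 the listed genes were above parental cells in CisR again. From BACE2 to PRMT2 all 6 were above them in CisR, beside 52.1% of all genes, and 4 of 6 in DoxR, beside 50.4%. The median log2 differences were 0.65 and 0.23. The ends of this stretch, too, were set with the values in view. Most other compared genes of the stretch were above parental cells in CisR as well, among them TMPRSS2 at 0.69 and ABCG1 at 1.24. A minority were below, such as ZBTB21 at -0.62 and C2CD2 at -1.31. PDE9A, a phosphodiesterase specific for cyclic GMP, had 830 in CisR and 436 in DoxR, against 258 in parental cells. That is 3.21-fold and 1.69-fold above parental cells by 1 probe set, the other being under the floor. PRMT2, an arginine methyltransferase, had 2209, 1637 and 1213 in CisR, DoxR and parental cells, 1.82-fold and 1.35-fold above parental cells. The splicing factor U2AF1, the cathepsin inhibitor CSTB and the membrane protein PTTG1IP were closer to parental cells. Their log2 differences were 0.18, 0.07 and 0.43 in CisR and -0.04, -0.30 and 0.04 in DoxR. Dimmer probe sets gave larger CisR differences, 1.76-fold above parental cells for CSTB and 1.54-fold and 1.33-fold for U2AF1.

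The other genes of chromosome 21, which were not picked for the list, were also mostly above parental cells in CisR. Of 91 compared, 74 were above, beside 52.1% of all genes, and the median log2 difference was 0.34. At 2-fold or more 9 were higher, beside 2.82% of all genes, and 1 was lower, beside 2.58%. From the centromere end to BACH1, where the listed genes had their higher median, 6 of 8 others were above parental cells, with a median of 0.35 and none at 2-fold. Beyond BACH1, 68 of 83 others were above parental cells, 9 of them by 2-fold or more, with a median of 0.34. The others thus had like medians in both sections. The largest differences of the others were 1.41 for ITGB2-AS1, 1.37 or more for CFAP410, 1.36 for EVA1C, 1.36 for CRYZL1, 1.34 for MCM3AP-AS1 and -1.31 for C2CD2. C2CD2 was lower in DoxR as well, at -1.26. With the listed genes included, chromosome 21 had the highest median of 23 chromosomes, 0.41 over 138 genes, and the highest share above parental cells, 81.2%. Chromosome 10 came next in both, at 0.12 and 62.7%.

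**Figure D4:**
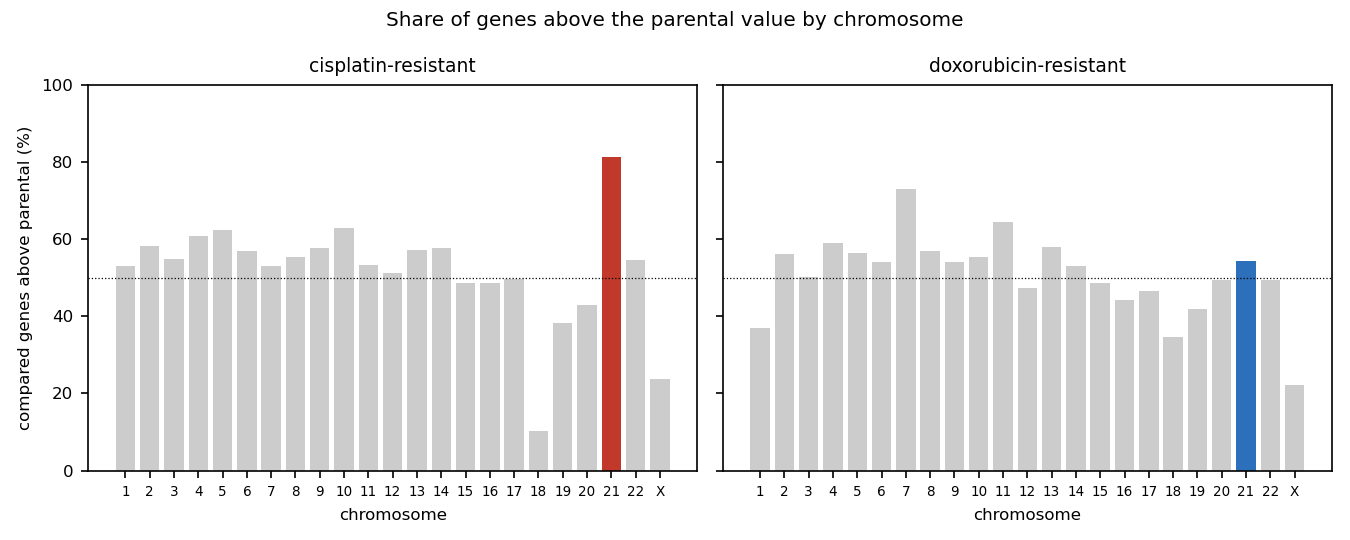
Share of compared genes above the parental value (percent) for each chromosome, in CisR and DoxR, with chromosome 21 coloured. Chromosome 21 has the highest share in CisR, 81.2%, and stands at 54.3% in DoxR.

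The second comparison set DoxR against parental cells, and here the listed genes lay near the parental values. Of 47 genes compared, 27 were above parental cells, beside 50.4% of all 12599 genes compared. RCAN1 alone was at least 2-fold higher, beside 2.99% of all genes, and NRIP1 alone at least 2-fold lower, beside 2.75%. At 1.5-fold, 7 genes were higher and 3 lower, beside 9.1% and 8.62%. The median log2 difference was 0.02 over the 47 genes, 0.29 from HSPA13 to BACH1 and 0.00 from TIAM1 to PRMT2. Short of the call, the highest values were 0.99 for CXADR, 0.86 for RWDD2B, 0.79 for HSPA13 and 0.76 for PDE9A. Chromosome 21 ranked 11 of 23 by median, with 54.3% of 129 genes above parental cells. Both comparisons use the parental array, so their likeness is no independent evidence.

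Set against each other, the sublines gave CisR above DoxR for 39 of 45 genes compared, beside 51.3% of all 12593 genes, and below it for 6, beside 48.7%. The CisR array was used to choose the genes and is used again here. The counts, medians and rank of this comparison are therefore a description and support nothing. CXADR at 2.20-fold, CHODL at 2.12-fold or more and MAP3K7CL at 48.6-fold reached the call, beside 3.32% of all genes, and 0 genes were 2-fold lower, beside 3.05%. Relative to the median of the neighbours CXADR stood at a log2 difference of 0.52 and CHODL at 0.37, both under the call. At 1.5-fold, 13 genes were higher and 0 lower in CisR, beside 9.91% and 9.16%. The median log2 difference was 0.48, with 0.62 from HSPA13 to BACH1 and 0.32 from TIAM1 to PRMT2. Chromosome 21 ranked first of 23 by median here too, at 0.36. The 6 genes lower in CisR than in DoxR were HSPA13, SCAF4, RCAN1, HLCS, DYRK1A and PSMG1, of which DYRK1A was the lowest at -0.34.

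By role, the median log2 differences in CisR were 1.19 over 3 ubiquitin and ribosome quality control genes, 0.81 over 7 signalling, kinase and endocytosis genes and 0.73 over 6 surface and adhesion genes. They were 0.60 over 7 folding, assembly and mitochondrial genes and 0.46 over 6 genes listed for RNA processing and ribosome biogenesis. That list of 6 also holds DONSON and RWDD2B. The medians were 0.32 over 10 transcription and chromatin genes and 0.25 over 4 cytokine receptors. In DoxR the same groups had medians of 0.70, 0.16, 0.02, 0.07, -0.03, 0.07 and 0.00. The 3 measured genes of the ubiquitin group all lie in the section near the centromere, and the group's distal gene, TTC3, has no value, so role and position cannot be told apart for it.

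Partners of these genes encoded on other chromosomes are given for comparison. The 6 compared CCT chaperonin subunits had log2 differences between -0.11 and 0.17 in CisR, against 0.49 for CCT8. GABPB1 and GABPB2, the partner subunits of GABPA, stood at 0.13 and -0.02, against 0.76 for GABPA, and no gene of the list of GABP and BACH1 partners reached 2-fold. Nuclear receptors and corepressors linked to NRIP1 had a median of 0.06 over 8 genes and the TAK1 complex 0.29 over 4, with none at 2-fold in either subline. Of 8 compared junction proteins related to or binding CXADR, 2 were at least 2-fold higher in CisR, beside 2.82% of all genes. LNX1, a ubiquitin ligase that binds CXADR, had 519, 151 and 110 in CisR, DoxR and parental cells, 4.70-fold higher in CisR. TJP3, a tight junction scaffold, had 337, 163 and 158, 2.13-fold higher in CisR. The scaffold MPDZ had 14.8 in DoxR, under the floor, against 222 in parental cells, at least 2.88-fold lower.

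**Figure D5:**
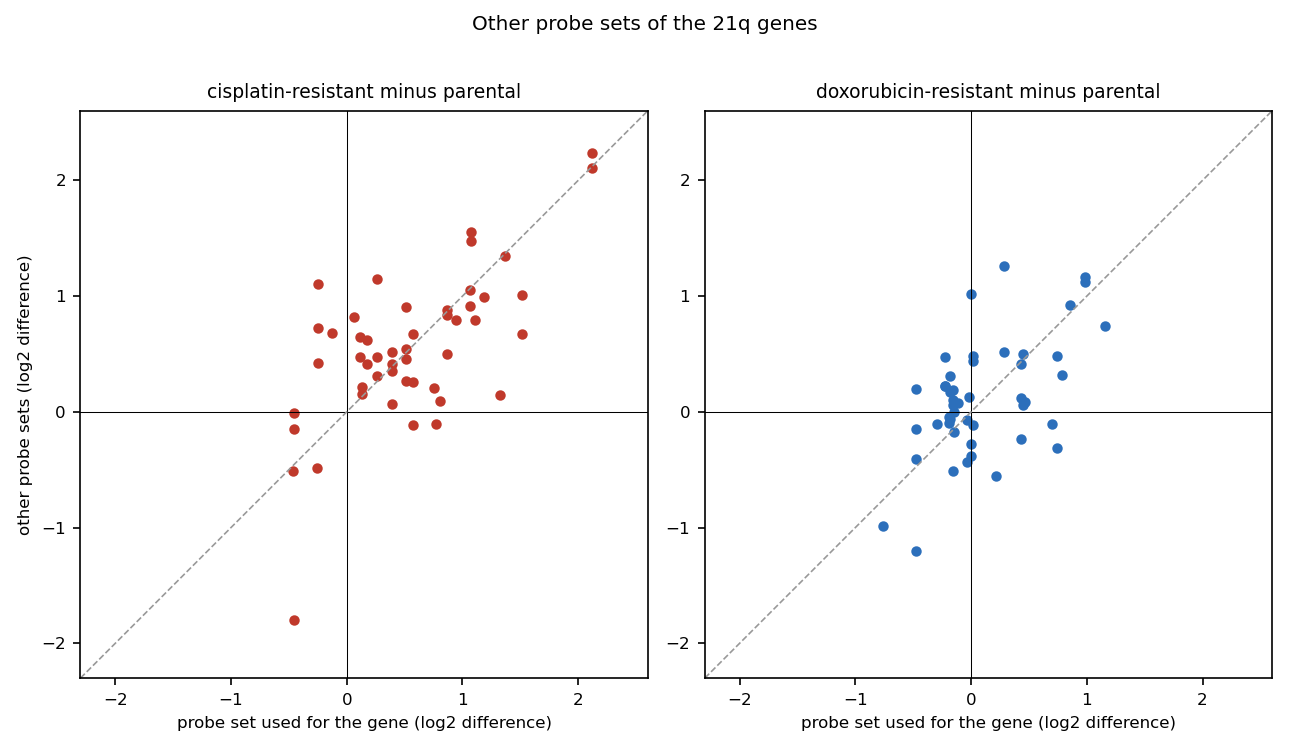
Log2 difference from parental cells of the other probe sets of a gene against the probe set that represents it, for CisR and DoxR, with 1 point for each other probe set that was compared; NRIP1 has none. In CisR 43 of 49 points have the sign of the representing probe set, and in DoxR 28 of 47.

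Other probe sets of a gene come from the same hybridisation and are no replicates, but they read other parts of its transcripts. In CisR 43 of 49 had the sign of the representing probe set, and their median log2 difference was 0.51. In DoxR it was 28 of 47, with a median of 0.09. Per gene, the median of the other probe sets had the same sign for 23 of 26 genes in CisR and 17 of 25 in DoxR, beside 69.5% and 69.0% of all genes. Probe sets whose names end in _x_at or _s_at, such as those used for BTG3 and USP16, can also read related transcripts.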

How the data were processed

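RNA of 3 lines was hybridised to 1 array each. The deposited values are a linear intensity (MAS5 signal) per probe set, made by the authors with MAS5 per the submitters' processing notes, with no version named there. Between arrays the values shared a trimmed mean (2% trimmed at each end) of 500.1, which assumes a similar total signal, and dim MAS5 values are noisy.

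Of 54675 probe sets, 41091 had 1 gene symbol in the platform annotation; 1801 with several were named for no gene. Symbols were updated through Entrez identifiers in a RefSeq table (GRCh38.p14, 41037 matched), which also gave gene order. Python 3.11.15 and pandas 2.3.3 floored the values and took log2. The probe set with the highest mean signal stood for a gene. Differences were computed over all genes; no p-value was computed, and 1 array per line limits precision. The steps were tested on simulated arrays.

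Genes at least 2-fold different in any comparison and 12 genes listed by name (RUNX1 without values) were given with their signals, others by difference, with up to 6 other chromosome 21 genes and 3 per partner list. The members, lists and section boundary were chosen with earlier results of these data known. Alternatives changed the floor, probe set rule, scaling, dim-gene filter, fold and sections; subtracting the median of neighbouring genes was added later.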

Additional observations from a re-analysis of the deposited data

How the results depend on the processing

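No paired analysis was possible because each line has 1 array. No difference called at 2-fold changed sign under any alternative. Smaller ones did: 8 of 97 recomputed summary medians, all of them DoxR minus parental medians between -0.02 and 0.07, and 20 of 1053 recomputed values of single genes (leaving out the neighbour subtraction), 14 of these with the median over probe sets. That setting put SCAF4 at 0.42 and HLCS at 0.28 in CisR, and USP25 at -0.08 and LTN1 at -0.11 in DoxR. Of the summary values 144 stayed close and 31 moved, and quantile normalization, centring of the arrays and the probe set with the highest mean log2 moved none. The listed genes at least 2-fold higher in CisR than in parental cells numbered 11, but 6 with the median over probe sets and 22 at 1.5-fold; those lower numbered 1, but 3 at 1.5-fold and 0 with the 75th percentile floor, with genes above the floor on all 3 arrays, or without NRIP1 and MAP3K7CL (added after seeing the data). In DoxR the 1 higher gene became 2 with the 25th percentile floor, 2 with no floor and 7 at 1.5-fold. The 1 lower gene became 3 with the 25th percentile floor, 2 with no floor, 3 at 1.5-fold, and 0 with the 75th percentile floor, with genes above the floor on all 3 arrays or without NRIP1 and MAP3K7CL. Keeping genes above the floor on all 3 arrays, or leaving out NRIP1, removes the only gene called lower. In both comparisons with parental cells the 0 of these settings was therefore fixed beforehand. For CisR over DoxR the 3 higher genes became 1 with genes above the floor on all arrays and 13 at 1.5-fold, and the 0 lower became 1 with the 25th percentile floor and 1 with no floor. The median from HSPA13 to BACH1 in CisR was 0.80 with the 25th percentile floor, 0.82 with no floor and 0.76 with the median over probe sets, and in DoxR 0.14 with the last; the middle of 3 sections gave 0.50 for CisR over DoxR. Other chromosome 21 genes 2-fold higher in CisR numbered 23 with the 25th percentile floor, 4 with the 75th, 17 with no floor and 27 at 1.5-fold; in DoxR they numbered 8 with the 25th percentile floor, 6 with no floor and 6 at 1.5-fold. Over all genes, 358 were higher in CisR, but 1020 with the 25th percentile floor, 105 with the 75th and 974 with no floor. CXADR, BTG3, RWDD2B, USP16 and MAP3K7CL kept 2-fold in CisR under every planned floor, scaling and probe set rule in which they were compared. With the median over probe sets, USP25 stood at 0.91, N6AMT1 at 0.14, LTN1 at 1.00, RCAN1 at 0.79 and PDE9A at 0.84. NRIP1 stood at -0.83 with the 75th percentile floor, where PDE9A too came under 2-fold, and CHODL at 0.94 with no floor. With the median of the 10 nearest genes subtracted (added after seeing the data), 9 calls came under 2-fold: in CisR over parental cells BTG3 (0.59), CHODL (0.40), N6AMT1 (0.65), LTN1 (0.53), RWDD2B (0.85), USP16 (0.55) and RCAN1 (0.67), and in CisR over DoxR CXADR (0.52) and CHODL (0.37). Apart from the smaller sets tested where a filter removes genes, the cause was not tested. Signals near or under the floor limit NRIP1, CHODL, ADAMTS1 and TIAM1.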
